A study of Mus musculus with 4 samples.

Results

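The Rab GTPase genes of laser-captured mouse Paneth cells are described here, as all genes whose 1 platform symbol reads Rab, a number and at most 1 letter. The rule found 59 genes with 132 probe sets, of 18193 named genes and 45037 probe sets on the array. Paneth cells are secretory cells that sit at the bottom of crypts in the small intestine. Expression was read on 4 arrays, 2 of Paneth cells from Atg16-hypomorph mice and 2 of Paneth cells from wildtype mice, all of a mixed strain background of C57BL/6 and 129ola. A hypomorph carries an allele of reduced function. Allele structure, age, sex and whether the 2 samples of a group came from separate animals were not given in the sources used here. A p-value therefore speaks only of how far these 4 samples scatter, which may be technical scatter. Sex may also differ along with genotype, since the RNA Xist was bright on both hypomorph arrays and dim on both wildtype arrays, as given below.

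Rab proteins are small GTPases that mark the membranes of the secretory, endocytic and lysosomal routes. Exchange factors load them with GTP, in which form they bind effectors that move, tether or fuse vesicles, and GTPase activating proteins switch them off. A lipid tail holds them on membranes, and the GDI proteins carry the inactive form through the cytosol. Paneth cells store antimicrobial proteins in large granules, a route that relies on Rab proteins of the Golgi and of secretory granules. Autophagy also uses them, and the Golgi protein Rab33b is known to bind Atg16l1.

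Intensities are the deposited linear values, and each gene is represented by the probe set with the highest mean over the 4 arrays. Each difference subtracts the wildtype mean from the hypomorph mean of log2(intensity + 32), a scale on which dim genes appear to change less than they do, and intervals are 95% intervals. The brightness of a probe set depends on its probes as well as on the RNA, so intensities are not compared between genes. The number of arrays limits the precision.

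A gene was called when the adjusted p of limma, fitted over all probe sets, was under 0.05. Of the 59 Rab genes 48 were bright enough to test, which left out 11 with an intensity of at most 70.8 on any array. Only Rab6b was called, as higher in hypomorph samples, and 0 Rab genes were called lower. That is 1 of 48 tested genes (2.08%), where 4.23% of all 11577 tested genes were called, 2.53% as higher and 1.70% as lower. An unadjusted p under 0.05 was reached by 11 Rab genes, 5 higher and 6 lower, against 21.7% of all genes (10.0% higher and 11.6% lower). The hypomorph arrays both lay above the wildtype arrays for 11 Rab genes and both below for another 11, where 23.4% and 30.0% of all genes did so, 53.4% in either direction.

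The count of called Rab genes moved with single arrays. Without hypomorph replicate 2 there were 5, Rab6b and Rab23 higher and Rab14, Rab27a and Rab27b lower, beside 7.42% of all genes. Without hypomorph replicate 1 or wildtype replicate 1 limma called 0, beside 2.84% and 2.61% of all genes, and without wildtype replicate 2 it called Rab6b alone, beside 2.48%. It also called 0 when no dim probe set was left out (0.973% of all genes), without the intensity trend (1.49%) and when the probe sets of a gene were averaged (2.74%). Rab6b alone was called, beside 5.06% of all genes with a filter at an intensity of 100, 3.99% with median centring, 4.05% with quantile normalisation, 3.91% and 4.38% with a pseudocount of 1 or a larger one, and 4.96% with a robust prior. With the replicate number as a block there were 7, beside 15.0%.

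**Figure D1:**
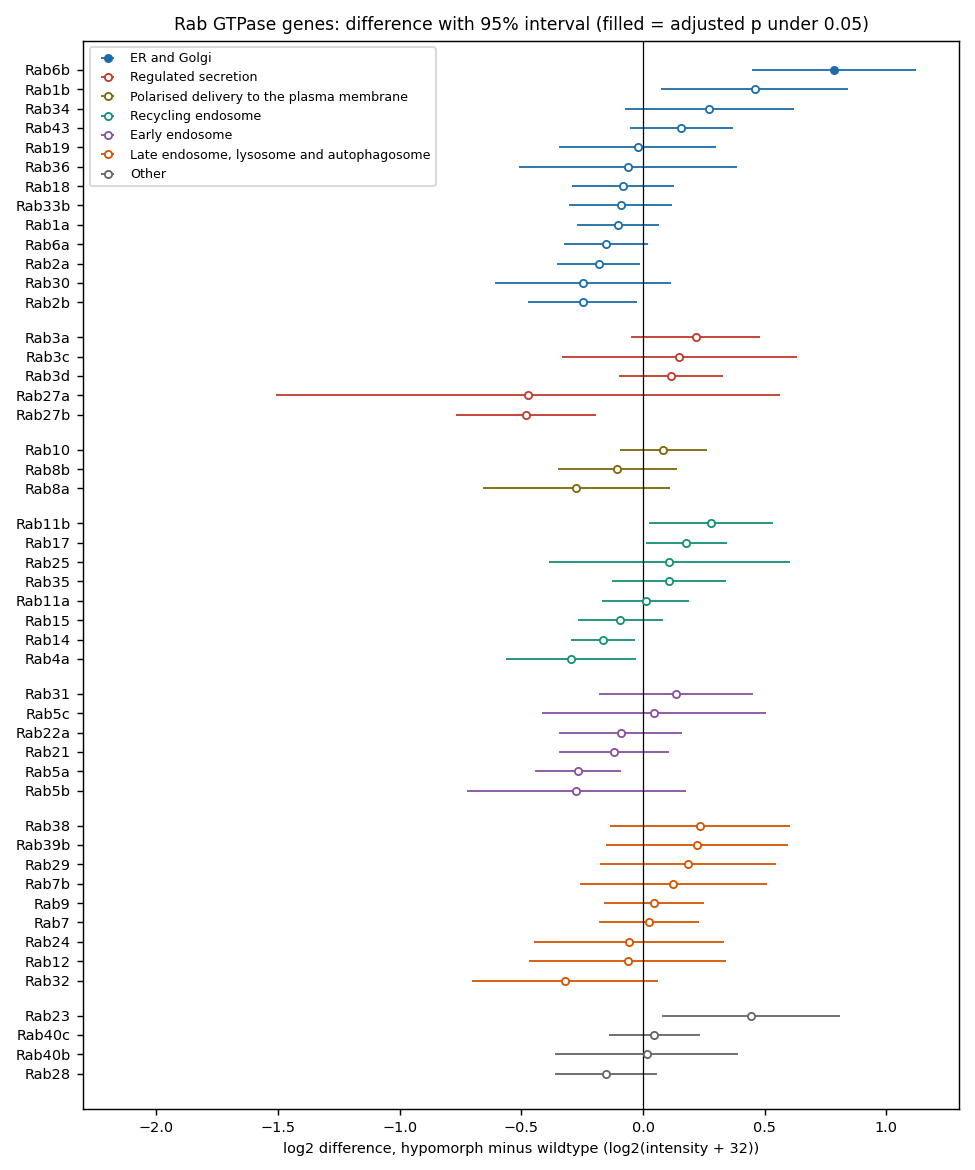
Log2 difference (hypomorph minus wildtype, of log2(intensity + 32)) of the 48 tested Rab genes, grouped by role in the colours of the legend. Points are estimates and lines their 95% intervals, and Rab6b, at 0.78, is the 1 filled point.

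Most Rab genes differed little. The median difference of the 48 was -0.0059, beside -0.024 for all tested genes, with 24 above 0 and 24 below. For 34 of the 48 (70.8%) the whole interval lay within 0.585 either way, much as for all genes (71.3%). That bound is 1.5-fold of intensity + 32, so for a dim gene it allows more than a 1.5-fold change in the intensity itself. The absolute difference was under 0.3 for 42 Rab genes (87.5%) and for 78.8% of all genes. The median without hypomorph replicate 1 was 0.0838. In captured tissue, fewer cells of a type and less RNA per cell cannot be told apart.

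**Figure D2:**
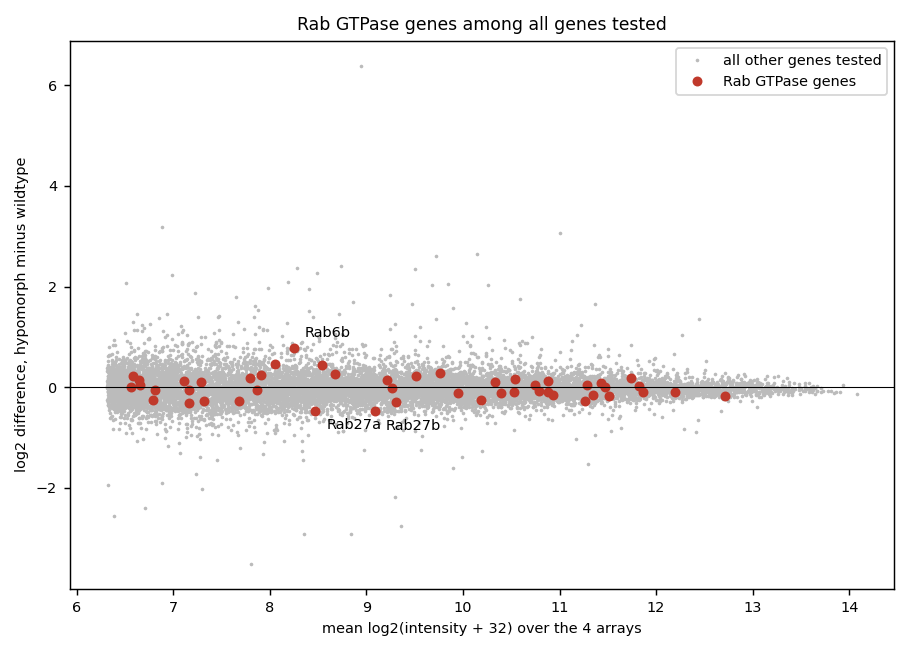
Log2 difference (hypomorph minus wildtype) against the mean log2(intensity + 32) over 4 arrays for all tested genes in grey and the 48 tested Rab genes in red. The Rab genes stay between -0.48 and 0.78, within the range of the other genes.

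The arrays were alike in median intensity and rank order, while some markers of Paneth cells and of other cell types differed between the groups. Median intensities lay between 47.2 and 49.5, and Spearman's rho over the probe sets of a pair of arrays, taken as a description, was 0.968 within hypomorph, 0.972 within wildtype and 0.956 to 0.969 between the groups. Of the 11 Paneth cell markers on the array, Kit and Reg3a were dim, at no more than 99.2 on any array, and the dimmest of the others, Pla2g2a, read 505 and 712 in hypomorph and 545 and 768 in wildtype. The lysozyme gene Lyz1 was at 14561 and 15097 in hypomorph against 15481 and 16021 in wildtype. All 11 markers passed the brightness filter, and 3 were called higher and 0 lower, where 2.53% and 1.70% of all tested genes were. Differences of the 11 ranged from -0.29 to 0.89 with a median of -0.09, 4 above 0 and 7 below. An unadjusted limma p under 0.05 was reached by 5 of the 11. Atg16l1, the targeted gene, read 966 and 995 in hypomorph and 1335 and 1183 in wildtype (difference -0.35, SE 0.10, limma adjusted p = 0.102), and the sources used do not say whether its probe set covers what the allele alters. Fat cell markers summed to 33636 and 33634 in hypomorph against 10873 and 11091 in wildtype, with 9 of 10 tested markers called higher, and enterocyte markers to 36114 and 37849 against 25604 and 26495, with 9 of 13 called higher. Enteroendocrine markers summed to 10241 and 10642 in hypomorph against 14028 and 13044 in wildtype, with 4 of 9 called lower. Of the fibroblast markers 4 of 8 were called higher, of the T and NK cell markers 2 of 6, and of the stem cell markers 2 of 9 were called lower, while limma called 0 of the goblet cell, endothelial, macrophage, B cell and smooth muscle markers, of which 4, 1, 2, 1 and 1 had an unadjusted p under 0.05. The fat cell markers Lipe and Cidea and the enterocyte marker Treh were under 32 on every array. The part of these cells in the values of Rab genes was not tested.

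Among the Rab genes of the ER and Golgi, 13 of 14 were tested, 1 was called higher and 0 lower, and their median difference was -0.08. Rab6b belongs to the Rab6 proteins, which move membrane from the Golgi and back to it, and is known as the form preferred by neurons. Its brightest probe set read 386 and 347 in hypomorph and 185 and 215 in wildtype. Both hypomorph values were higher and the groups did not overlap. The difference was 0.78 (SE 0.15, interval 0.45 to 1.12, limma adjusted p = 0.0216). It was not called without hypomorph replicate 1 (difference 0.71, SE 0.19) or without wildtype replicate 1 (0.69, SE 0.21). Each such fit left 1 array in a group and a larger SE, so a lost call does not single out that array. Over all arrays left out in turn the difference stayed between 0.69 and 0.88. The limma adjusted p was 0.0785 with no filter on dim probe sets and 0.0561 without the intensity trend. The other 3 probe sets of Rab6b were too dim to test, at differences of 0.34, 0.24 and 0.08. Of the enteric neuron and glia markers, which summed to 3571 and 4288 in hypomorph against 2468 and 2298 in wildtype, 1 of 3 tested was called higher. This was the neuropeptide gene Vip, at 3412 and 4113 in hypomorph against 2271 and 2119 in wildtype, while Elavl4, Sox10, S100b, Gfap and Uchl1 read at most 57.9 on any array. The part of nerve cells in the Rab6b value was not tested.

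The promoter of Rab6b is shown because it is the 1 called member. RefSeq's table (GRCm38.p6) gives chr9:103111824-103112123 on the plus strand, 250 bases before to 50 after the start of the gene. Capitals mark the only match in this window to CAGCTG, an E-box bound by basic helix-loop-helix factors, whose first base lies 72 bases before the start.
Rab6b promoter: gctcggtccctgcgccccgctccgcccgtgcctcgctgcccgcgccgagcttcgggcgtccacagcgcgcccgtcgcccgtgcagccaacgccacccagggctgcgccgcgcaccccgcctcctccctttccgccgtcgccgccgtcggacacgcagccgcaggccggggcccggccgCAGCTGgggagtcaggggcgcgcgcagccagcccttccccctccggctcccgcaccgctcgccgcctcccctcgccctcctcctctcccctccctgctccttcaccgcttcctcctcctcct
CAGCTG was searched on both strands, with which it reads the same. It was present in a window of 14 of the 48 Rab genes in that table (29.2%), against 18.3% of all 27025 genes. These 48 are not the 48 tested Rab genes and include members too dim to test, such as Rab39 and Rab9b. The match is a description of the letters and not a binding site.

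Rab6a, the widely expressed Rab6 form, gave different directions by probe set. The brightest read 2365 and 2527 in hypomorph against 2679 and 2762 in wildtype (difference -0.15, limma adjusted p = 0.305), and the other tested probe sets differed by 0.41 (adjusted p = 0.104) and 0.26 (adjusted p = 0.348). Rab6a and Rab6b are close relatives, so cross-hybridisation between their probes cannot be told from these values. The same holds for the probe sets of the other close pairs and trios, such as those of Rab1, Rab2, Rab3, Rab5, Rab8, Rab11 and Rab27.

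Rab33b, which binds Atg16l1, read 1677 and 1930 in hypomorph and 1912 and 1929 in wildtype. The second hypomorph value lay just above both wildtype values, so the groups overlapped. The difference was -0.09 (SE 0.09, interval -0.30 to 0.12, limma adjusted p = 0.621), and it was 0.0073 without hypomorph replicate 1. Atg16l1 itself was lower on both hypomorph arrays without being called, as given above.

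Rab1a and Rab1b act in transport from the ER to the Golgi. Rab1a read 4213 and 4820 in hypomorph and 4884 and 4802 in wildtype, overlapping groups with a difference of -0.10 (SE 0.07, interval -0.27 to 0.06). Rab1b had the second largest positive difference of the family, with 327 and 240 in hypomorph against 202 and 188 in wildtype. Its hypomorph arrays were both higher but spread more widely than the wildtype arrays, and the difference of 0.46 (SE 0.17, limma adjusted p = 0.172) was not called.

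Rab2a and Rab2b, which act between ER and Golgi as well, both lay lower in hypomorph by their brightest probe sets. Rab2a read 2592 and 2810 in hypomorph and 3104 and 3034 in wildtype, which did not overlap (difference -0.18, SE 0.08, limma adjusted p = 0.214). Rab2b, at 998 and 1081 in hypomorph and 1234 and 1247 in wildtype, differed by -0.25 (limma adjusted p = 0.198), and its second tested probe set by -0.23. The 5 other tested probe sets of Rab2a ranged from -0.49 to 0.16.

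Of the Rab genes of regulated secretion, 5 of 8 were tested and 0 were called in either direction, with a median difference of 0.11. Rab3d sits on the secretory granules of exocrine cells such as the pancreatic acinar cell. It read 1827 and 2048 in hypomorph and 1694 and 1879 in wildtype. The values interleaved, and the difference was 0.11 (SE 0.10, interval -0.10 to 0.33, limma adjusted p = 0.543). Its 3 other tested probe sets gave -0.0053, 0.29 and 0.22. Bhlha15, also called Mist1, which is known to drive Rab3d and Rab26 in exocrine cells, read 1931 and 2219 in hypomorph against 1658 and 1650 in wildtype (difference 0.32, SE 0.09, limma adjusted p = 0.0964). Rab26 itself was not tested, at 8.44 and 3.8 in hypomorph and 4.4 and 3.31 in wildtype.

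Rab27a and Rab27b dock granules and lysosome-related organelles at the plasma membrane. Rab27b read 401 and 458 in hypomorph against 625 and 597 in wildtype. Both hypomorph values were lower and the groups did not overlap. The difference of -0.48 (SE 0.13, interval -0.77 to -0.19) was the largest negative one of the tested Rab genes and was not called (limma adjusted p = 0.0718). The other probe sets bright enough to test gave -0.42 (adjusted p = 0.118) and -0.52 (adjusted p = 0.136), so all 3 tested probe sets had the same sign. A further probe set, too dim to test, gave 0.25. With its probe sets averaged Rab27b differed by -0.29 (limma adjusted p = 0.199). Without hypomorph replicate 2 Rab27b was called (difference -0.57, limma adjusted p = 0.0465), and over the arrays left out in turn the difference ranged from -0.57 to -0.39.

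Rab27a was the most uneven member. It read 130 and 529 in hypomorph and 285 and 520 in wildtype, so the arrays of each group lay far apart and the groups overlapped. The difference was -0.47 (SE 0.46, interval -1.51 to 0.56, limma adjusted p = 0.609). It was 0.42 without hypomorph replicate 1 and -1.37 without hypomorph replicate 2 (limma adjusted p = 0.0143), so a single array set its sign. The other 3 probe sets of Rab27a were too dim to test, at no more than 29.8 on any array.

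Rab3a and Rab3c, forms of Rab3 known from neurons and endocrine cells, had differences of 0.22 (limma adjusted p = 0.339) and 0.15 (adjusted p = 0.746). Rab3a read 741 and 766 in hypomorph and 687 and 603 in wildtype, higher on both hypomorph arrays. The enteroendocrine markers had a median difference of -0.31 and summed lower in hypomorph. The enteric neuron and glia markers summed higher there, but most of that sum was Vip, as given above. The 3 tested markers of that list had a median difference of 0.09, 2 above 0 and 1 below. The part of either cell type in the Rab3a and Rab3c values was not tested.

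**Figure D3:**
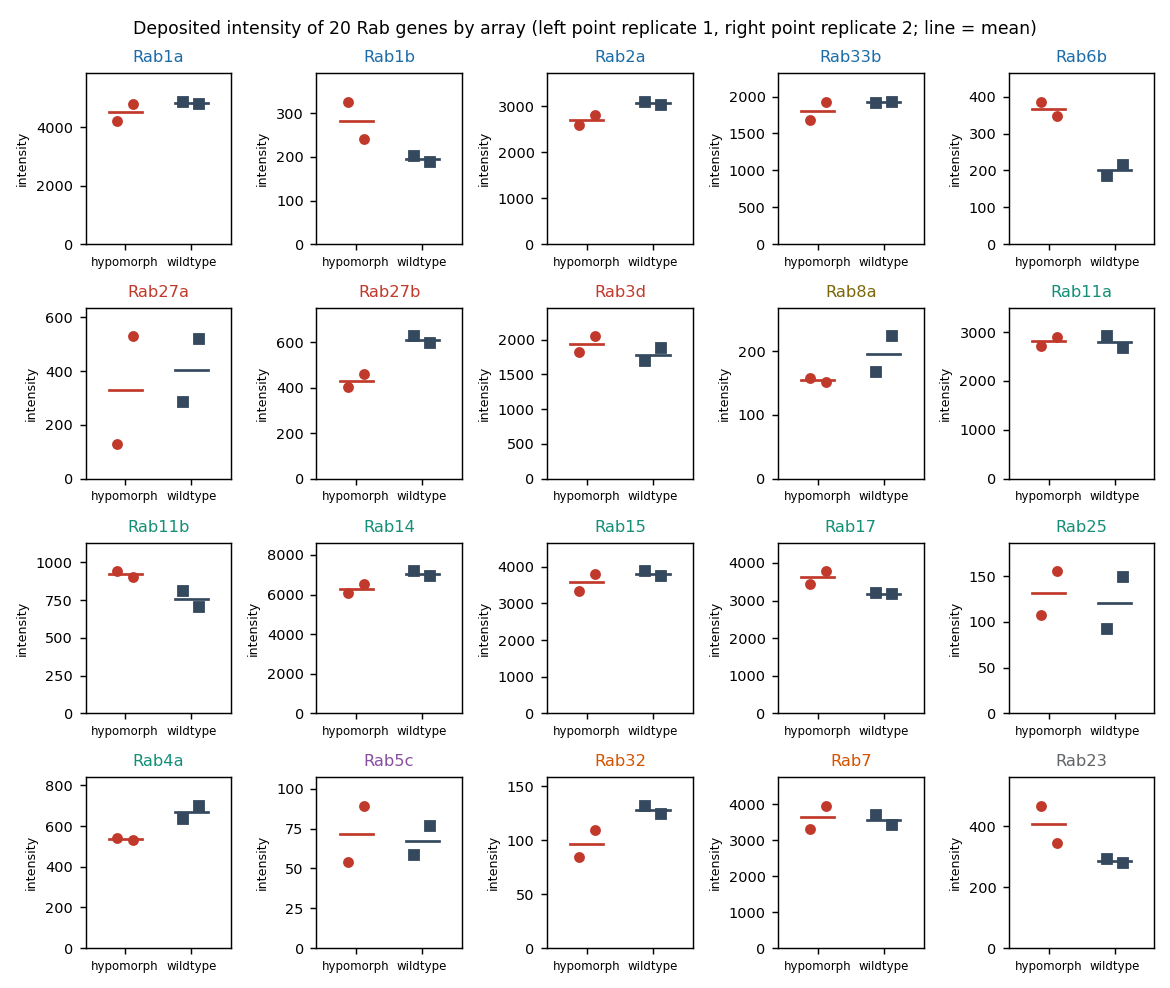
Deposited linear intensity of the 20 Rab genes chosen by rule, one panel per gene with its own axis from 0. Hypomorph arrays are red circles and wildtype arrays dark squares, with replicate 1 left and replicate 2 right and a line at the mean. Rab6b and Rab27b are among several panels with separate groups, which 53.4% of all tested genes had. Rab27a spans 130 to 529 within hypomorph.

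In polarised delivery to the plasma membrane 3 of 4 genes were tested and 0 were called, with a median difference of -0.11. Rab8a, needed for apical delivery in intestinal epithelium, read 158 and 151 in hypomorph and 167 and 223 in wildtype. Both hypomorph values were lower, and the wildtype values spread over more than the gap between the groups. The difference was -0.28 (SE 0.17, interval -0.66 to 0.11, limma adjusted p = 0.401). A dimmer probe set that was not tested gave 0.53. Rab10, which serves basolateral delivery, differed by 0.08 (limma adjusted p = 0.597), with other probe sets at -0.15 and 0.52.

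In the recycling endosome, from which receptors return to the surface, 8 of 9 genes were tested and 0 were called, with a median difference of 0.06. Rab11a, which guides recycling to the apical membrane, read 2724 and 2902 in hypomorph and 2911 and 2677 in wildtype. The groups overlapped fully, and the difference was 0.01 (SE 0.08, interval -0.17 to 0.19, limma adjusted p = 0.962). The second tested probe set of Rab11a gave -0.40 (adjusted p = 0.204).

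Its relative Rab11b read 943 and 904 in hypomorph against 808 and 707 in wildtype. The hypomorph values were higher without overlap, and the difference of 0.28 (SE 0.11, limma adjusted p = 0.208) was not called. Rab14, between Golgi and endosomes, read 6072 and 6514 in hypomorph and 7190 and 6920 in wildtype. The hypomorph values were lower, with a difference of -0.16 (SE 0.06, interval -0.30 to -0.03, limma adjusted p = 0.158), and its 6 other tested probe sets ranged from -0.41 to 0.06. Without hypomorph replicate 2 the value of Rab14 was -0.22 and passed the threshold (limma adjusted p = 0.0494).

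Rab4a, of the fast recycling route, read 544 and 533 in hypomorph against 637 and 700 in wildtype. These values did not overlap either, at a difference of -0.30 (SE 0.12, limma adjusted p = 0.203). Rab15 read 3348 and 3798 in hypomorph and 3880 and 3736 in wildtype (difference -0.09, limma adjusted p = 0.541), with overlapping groups. Rab25, an epithelial relative of Rab11, read 108 and 156 in hypomorph and 92.3 and 149 in wildtype. In each group the second array was the brighter one, the groups overlapped, and the difference was 0.11 (SE 0.22, interval -0.39 to 0.60, limma adjusted p = 0.829).

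Rab17, a Rab of polarised epithelia, read 3442 and 3785 in hypomorph and 3200 and 3175 in wildtype. Both hypomorph values were higher, and the difference was 0.18 (SE 0.07, limma adjusted p = 0.214). It lies on chromosome 1 as Atg16l1 does, with 30 protein-coding genes between them in the RefSeq table. The other tested Rab genes of chromosome 1 were Rab23, Rab29 and Rab7b, with 372, 199 and 195 genes between them and Atg16l1, at differences of 0.44, 0.18 and 0.12. All 4 were above 0 and 0 were called. Of the 4 tested Rab genes of chromosome 10, 0 were above 0, and the 694 tested genes of chromosome 1 had a median of -0.03 with 44.4% above 0.

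Of the Rab genes of the early endosome 6 of 7 were tested and 0 were called, with a median difference of -0.11. Rab5a, which drives fusion of early endosomes, read 2198 and 2216 in hypomorph against 2762 and 2570 in wildtype. The groups stood apart, and the difference of -0.27 (SE 0.08, interval -0.45 to -0.09) was not called (limma adjusted p = 0.0965). Rab5b differed by -0.27 as well (limma adjusted p = 0.479). Rab5c read 53.9 and 89.4 in hypomorph and 58.3 and 76.5 in wildtype, with the wildtype values inside the range of the hypomorph ones (difference 0.04, SE 0.21, limma adjusted p = 0.93).

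Rab5a, Rab21 and Rab24 share a promoter sequence, shown because it is the element through which TFEB is known to act on lysosomal and autophagy genes. This is the CLEAR element, searched here as the E-box CACGTG with GT directly before it and AC directly after it, which reads the same on both strands. Of the 48 Rab genes with a promoter in RefSeq's table, 3 hold it (6.25%), against 100 of all 27025 genes (0.37%). The 100-base stretches below lie at chr17:53479092-53479191 on the plus strand, chr10:115315569-115315668 on the minus strand and chr13:55321931-55322030 on the minus strand of GRCm38.p6, with the element in capitals.
Rab5a promoter: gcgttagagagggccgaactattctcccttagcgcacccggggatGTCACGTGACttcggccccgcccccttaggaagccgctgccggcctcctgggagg
Rab21 promoter: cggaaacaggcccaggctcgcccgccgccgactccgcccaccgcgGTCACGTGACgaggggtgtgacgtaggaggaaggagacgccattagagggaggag
Rab24 promoter: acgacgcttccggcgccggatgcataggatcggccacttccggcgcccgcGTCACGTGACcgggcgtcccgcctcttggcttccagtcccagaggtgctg
The element begins 97 bases before the start of Rab5a, 32 bases before that of Rab21 and at base 1 of Rab24. As for Rab6b, the matches are a description of the letters and not binding sites. Any action of TFEB on these genes was not tested. Rab21, an endosomal Rab of integrin traffic, read 1197 and 1329 in hypomorph and 1433 and 1315 in wildtype (difference -0.12, limma adjusted p = 0.549). Rab24, linked to autophagosomes, read 119 and 98.4 in hypomorph and 102 and 127 in wildtype (difference -0.06, limma adjusted p = 0.889). The hypomorph and wildtype values overlapped for both. The shorter E-box CACGTG was found in 6 of the 48 Rab genes (12.5%) and in 8.09% of all genes, counting those with the longer element. The other motifs were searched on both strands too. The E-box CATATG was held by 1 of the 48 Rab genes (2.08%) and 4.48% of all genes, the sequence TATAAA by 4 (8.33%) and 15.7%, and the sequence CCAAT by 26 (54.2%) and 41.1%.

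Of the Rab genes of late endosomes, lysosomes and autophagosomes 9 of 12 were tested and 0 were called, with a median difference of 0.05. Rab7, which directs late endosomes and autophagosomes to the lysosome, read 3316 and 3967 in hypomorph and 3704 and 3430 in wildtype. The wildtype values lay inside the range of the hypomorph ones. The difference was 0.02 (SE 0.09, interval -0.18 to 0.23, limma adjusted p = 0.91), and the dimmer probe set gave -0.46 (adjusted p = 0.224). Rab32, of lysosome-related organelles, read 84.2 and 109 in hypomorph against 132 and 124 in wildtype. Its hypomorph values were both lower, with a difference of -0.32 (SE 0.17, interval -0.70 to 0.06, limma adjusted p = 0.324).

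Rab23, a negative regulator of Hedgehog signalling, is the remaining gene with a large difference. It read 467 and 344 in hypomorph against 293 and 281 in wildtype. The hypomorph values were higher but uneven (difference 0.44, SE 0.16, limma adjusted p = 0.166), and without hypomorph replicate 2 the difference was 0.65 (adjusted p = 0.0423). A second tested probe set of Rab23 lay on the other side of 0, at -0.42 (adjusted p = 0.248).

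Xist, the RNA that coats an inactive X chromosome, gave 4414 and 4510 in hypomorph against 18 and 25.6 in wildtype. This is the pattern of female hypomorph and male wildtype samples, though sex was not given. With such a split, sex and genotype cannot be told apart in any difference between the groups. That includes the differences of Rab6b, Plekhm1 and the cell type markers. The part of sex in the values, of X-linked genes or of others, was not tested. The X-linked Rab genes that could be tested were Rab9, of late endosome to Golgi transport, and Rab39b. Rab9 read 1673 and 1758 in hypomorph and 1745 and 1579 in wildtype (difference 0.05, interval -0.16 to 0.25, limma adjusted p = 0.825). Rab39b read 77.1 and 66.2 in hypomorph and 52.8 and 60.9 in wildtype (difference 0.22, limma adjusted p = 0.492).

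Probe sets of the same gene often differed in sign. Of 20 Rab genes with at least 2 tested probe sets, 8 had differences of one sign and 12 of both signs. Some of the 12 had both signs through a value near 0, such as -0.0053 for Rab3d and 0.01 for Rab11a. The share over all genes was not taken. The widest spreads were those of Rab23, from -0.42 to 0.44, the early endosomal Rab22a, from -0.21 to 0.49, and Rab10, from -0.15 to 0.52. Those of Rab27b (-0.52 to -0.42), Rab2b (-0.25 to -0.23) and Rab3a (0.22 to 0.29) were narrow. Of all 85 tested Rab probe sets 1 was called, the brightest of Rab6b, where 3.71% of all tested probe sets were called.

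**Figure D4:**
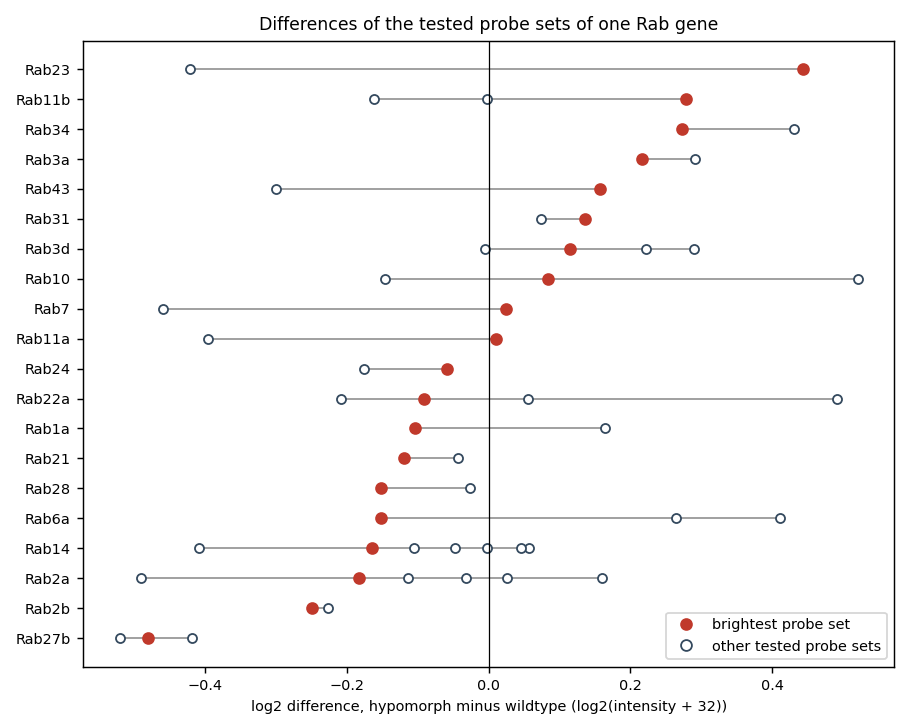
Log2 differences (hypomorph minus wildtype) of all tested probe sets of the 20 Rab genes that have at least 2, with the brightest probe set as a filled red point and the others open. For 12 genes the points lie on both sides of 0.

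The proteins that run the Rab cycle were read from lists of effectors, exchange factors, GTPase activating proteins and the GDI, escort and prenylation proteins. Of 40 tested effectors 1 was called higher and 0 lower, where 2.53% of all genes were called higher and 1.70% lower, so the count was near that of genes at large. Their median difference was 0.02. The called effector was Plekhm1, an effector of Rab7 that joins autophagosomes and late endosomes to lysosomes. Plekhm1 read 452 and 630 in hypomorph against 275 and 268 in wildtype. The groups did not overlap, and the difference was 0.90 (SE 0.17, interval 0.53 to 1.27, limma adjusted p = 0.0178). It was called without each array in turn, with adjusted p between 0.00321 and 0.0384. It was not called with no filter on dim probe sets (adjusted p = 0.088), without the intensity trend (0.0808) or with its probe sets averaged (difference 0.44, adjusted p = 0.255). A dim second probe set gave -0.02 (adjusted p = 0.967).

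The other effectors with the smallest p were not called. Mical1, a Rab-binding enzyme that takes actin filaments apart, read 1299 and 1112 in hypomorph against 905 and 779 in wildtype (difference 0.50, SE 0.12, limma adjusted p = 0.053). Rph3al, also known as Noc2, which binds Rab3 and Rab27 on secretory granules, read 1301 and 1193 in hypomorph against 828 and 984 in wildtype (difference 0.45, limma adjusted p = 0.0647). Exph5, an effector of Rab27, read 1799 and 1897 in hypomorph against 2185 and 2257 in wildtype (difference -0.26, limma adjusted p = 0.116). None of these 3, named for their small p, overlapped between the groups, and neither did 53.4% of all tested genes. Mical1 was called without hypomorph replicate 2 (adjusted p = 0.0256), without wildtype replicate 1 (0.0443), with a filter at an intensity of 100 (0.0499) and with a robust prior (0.0404), and Rph3al was called without wildtype replicate 2.

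Of 37 exchange factors, 29 GTPase activating proteins and 7 GDI, escort and prenylation proteins tested, limma called 0, and 5, 4 and 1 had an unadjusted p under 0.05. Over all genes 4.23% were called and 21.7% had an unadjusted p under 0.05. Their median differences were -0.06, -0.07 and -0.18. Of the exchange factors 26 were below 0 and 11 above, and of the GTPase activating proteins 19 and 10, where 55.2% of all tested genes were below 0. Trappc6b and Trappc10, subunits of TRAPP complexes that activate Rab1 and Rab11, had the smallest p of the exchange factors. Trappc6b read 894 and 1118 in hypomorph against 1371 and 1384 in wildtype (difference -0.45, limma adjusted p = 0.0691), and Trappc10 2956 and 3382 in hypomorph against 3688 and 3912 in wildtype (difference -0.26, limma adjusted p = 0.114). Both were lower on each hypomorph array, as were 30.0% of all tested genes. Without hypomorph replicate 2, limma called 3 exchange factors, Trappc6b, Trappc10 and Dennd4c.

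Among GTPase activating proteins, Rabgap1l read 903 and 989 in hypomorph against 1203 and 1193 in wildtype (difference -0.33, limma adjusted p = 0.109), and Tbc1d12 differed by -0.46 (adjusted p = 0.11). Chm, the escort protein that presents new Rab proteins for prenylation, read 276 and 304 in hypomorph against 346 and 438 in wildtype (difference -0.39, limma adjusted p = 0.196). It lies on the X chromosome. Rabif, a chaperone of Rab proteins free of nucleotide, differed by -0.32 (limma adjusted p = 0.264), and Gdi2, at 7786 and 8576 in hypomorph against 8828 and 8979 in wildtype, by -0.12 (limma adjusted p = 0.27). Gdi2 was called without hypomorph replicate 2.

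**Figure D5:**
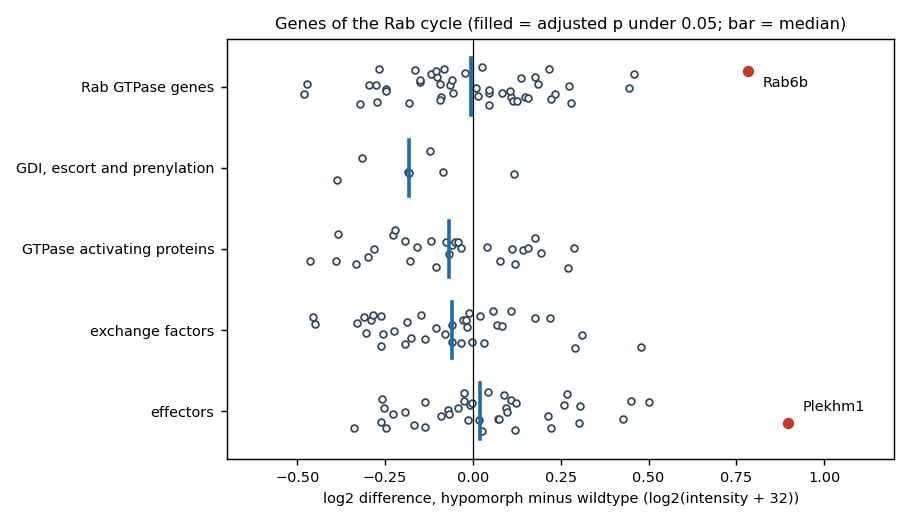
Log2 differences (hypomorph minus wildtype) of the tested Rab genes and of the tested genes of 4 lists of the Rab cycle, one point per gene with random vertical jitter and a blue bar at the median. The 2 filled points, Rab6b at 0.78 and Plekhm1 at 0.90, are the calls.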

How the data were processed

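Per the labels' protocols, RNA of captured cells was isolated with PicoPure, amplified with RiboAmp plus and labelled with biotin, then hybridised to 1-colour arrays. The authors deposited 1 linear intensity per probe set and array. How they were scaled or background-corrected was not given in the sources used here, and the values were not normalised again. Gene names came from the platform annotation (34945 with 1 symbol, 932 with several, 9160 with none, 64 controls left out). All 59 Rab gene IDs were found in the RefSeq table (GRCm38.p6) and 0 Rab symbols changed. Of the 59, 48 had a promoter window there, a set other than the 48 tested.

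Probe sets with a mean log2(intensity + 32) of at least the median (6.316) were tested, 22519 in all, with limma 3.58.1 in R 4.3.3 (group as the only term, intensity trend, 2 residual and 7.808 prior degrees of freedom, two-sided, Benjamini-Hochberg over all probe sets). The procedure was tested on data simulated with independent normal errors. That test cannot show how it handles scatter shared between arrays or other differences between the groups. Gene roles, lists and members were chosen with earlier results of these data known. Values per array are given for the called genes, Rab3d, Rab27a, Rab11a, Rab33b, a representative per role, the 6 brightest in wildtype and the 4 largest differences each way. Of each Rab cycle list the called genes are named, or those with the smallest p. Rab2b, Rab3a, Rab3c, Rab5a, Rab5b, Rab6a, Rab9, Rab10, Rab21, Rab22a, Rab24, Rab26, Rab29, Rab7b and Rab39b, Gdi2, Dennd4c, Mical1, Rph3al, Exph5, Bhlha15, Xist and the 6 promoter motifs were chosen after their values were seen. The closing section gives the alternatives.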

Additional observations from a re-analysis of the deposited data

How the results depend on the processing

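Rab6b was the 1 called Rab gene under quantile normalisation, median centring, both pseudocounts, the filter at an intensity of 100 and the robust prior. Limma called 0 Rab genes with no filter on dim probe sets, without the intensity trend and when a gene's probe sets were averaged, where 0.973%, 1.49% and 2.74% of all genes were called, and Rab6b was too dim to test in the last. With arrays left out in turn 0 to 5 Rab genes were called, and 500 to 1648 of all probe sets, against 836. Without the filter 303 probe sets were called and without the trend 323. With averaged probe sets no count of probe sets exists. The median difference of the Rab genes ranged from -0.0499 to 0.0838 over the arrays left out, and changed by less than the spread between arrays in all other settings.

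The labels number the replicates alike in both groups, but nothing says that equal numbers share an animal or a day, and the deviations of equally numbered arrays correlated at 0.264. With the replicate number as a block limma called 3206 probe sets and 15.0% of all genes, among them 7 Rab genes (14.6%): Rab6b, Rab1b and Rab23 higher, and Rab14, Rab27a, Rab27b and Rab5a lower. The block adds a term to the fit, which leaves fewer than the 2 residual degrees of freedom of the main fit. Its calls therefore rest more on the prior. The block gave 5 effectors, 4 exchange factors and 2 GTPase activating proteins. The effectors numbered 2 with the filter at 100 and with the robust prior, 0 without the filter, without the trend and with the mean of probe sets, and 1 to 2 over the arrays left out. Over the arrays left out the exchange factors numbered 0 to 3, the GDI, escort and prenylation genes 0 to 1.

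Signs were followed for the 20 Rab genes chosen by rule. Among these, with averaged probe sets the sign turned for Rab11a (-0.19), Rab1a (0.0068), Rab7 (-0.22) and Rab8a (0.14). Over the arrays left out it turned for Rab11a (-0.0499 to 0.0698), Rab25 (-0.17 to 0.38), Rab27a (-1.37 to 0.42), Rab33b (-0.19 to 0.0073), Rab5c (-0.21 to 0.30) and Rab7 (-0.10 to 0.15). The cause was not tested. The precision rests on 2 arrays a group, and the brightness filter keeps 11 Rab genes out. Where an array is left out, the fit takes the spread of the other group for its remaining array.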

Other observations

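Some relatives of the Rab family that its naming rule leaves out, chosen after their values were seen, differed more than most Rab genes without being called. Ift22, a Rab-like protein of transport within cilia, read 322 and 317 in hypomorph against 207 and 215 in wildtype (difference 0.53, SE 0.14, limma adjusted p = 0.0715). Ift27, another Rab-like ciliary protein, read 794 and 789 in hypomorph against 574 and 589 in wildtype (difference 0.42, SE 0.11, limma adjusted p = 0.0699). The groups did not overlap for either gene, nor for 53.4% of all tested genes. Rasef, which joins EF hands to a Rab domain, read 828 and 911 in hypomorph against 1078 and 1213 in wildtype, lower on both hypomorph arrays (difference -0.39, SE 0.11, limma adjusted p = 0.0904). Rabl2 and Rabl3 differed by 0.09 and -0.07 (limma adjusted p = 0.808 and 0.714), and Rabl6 by 0.18 (adjusted p = 0.308).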
